A study of Mus musculus with 18 samples.

Results

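The circadian clock genes Per1, Per2, Per3, Cry1, Arntl (also called Bmal1), Clock, Dbp, Nr1d1, Nr1d2 and Bhlhe40 were followed in 18 mouse melanoma allografts. The 10 genes were chosen by name, with earlier results of these data known. They were read through every probe set whose single platform gene symbol was 1 of these genes. They gave 23 of the 45037 probe sets on the arrays, of which 22 passed a filter on low values. All 10 genes were among the 15005 tested. The tumours came from 1 mouse melanoma line, iNRAS-475, whose NRAS oncogene is induced by doxycycline. The cells were grown in the skin of nude mice, a strain without mature T cells, and all mice drank water with doxycycline at 2 mg/ml while tumours formed over 6 weeks to 200 to 500 mm3. In the vehicle group the mice then received vehicle. In the MEKi group they received AZD6244 (selumetinib, an inhibitor of the kinases MEK1 and MEK2) at 100 mg/kg for 4 days. In the -NRAS group doxycycline was removed for 4 days. Each group held 6 distinct tumours. Since -NRAS was the only group without doxycycline at harvest, loss of the drug and loss of the oncogene cannot be told apart. The labels give no clock time of harvest, no time of dosing and no light schedule, so a difference in clock time between groups was not tested. They give no batch either.

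The clock is a feedback loop of transcription that runs in most mammalian cells with a period of about a day. BMAL1 (the product of Arntl) and CLOCK bind DNA together at E-boxes and switch on the Per and Cry genes, Nr1d1, Nr1d2, Dbp and Bhlhe40, among others. PER and CRY proteins then block BMAL1 and CLOCK, while the nuclear receptors REV-ERBα (Nr1d1) and REV-ERBβ (Nr1d2) repress Arntl. Because these transcripts cycle out of phase, a single sampling time gives each gene's level at an unknown point of its cycle.

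The loop acts through short DNA elements, and the promoter stretches that hold them are shown here for the members whose levels are described below. Promoters of 8 of the 10 genes, in 12 entries, were matched in RefSeq (build GRCm38.p6), with none for Per2 or Bhlhe40. Each window ran from 250 bases before to 50 bases after a transcript start. It was searched on both strands for the E-box CACGTG, the D-box TTANGTAA bound by DBP, the ROR element TAGGTCA shared by ROR and REV-ERB receptors, and the cAMP response element TGACGTCA. Matches of different motifs did not overlap in these genes. Capitals mark the matched letters, and each line reads 5′ to 3′ on the strand of the gene.
Per1, chr11:69098736-69098835, plus strand: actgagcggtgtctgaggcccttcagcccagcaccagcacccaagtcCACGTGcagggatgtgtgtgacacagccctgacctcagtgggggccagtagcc
Cry1, chr10:85185062-85185161, minus strand: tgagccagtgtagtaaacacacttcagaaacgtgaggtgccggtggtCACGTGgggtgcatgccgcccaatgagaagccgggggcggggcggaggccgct
Per3, chr4:151044794-151044893, minus strand: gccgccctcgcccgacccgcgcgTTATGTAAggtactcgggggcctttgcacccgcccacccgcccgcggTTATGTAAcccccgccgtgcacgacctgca
Arntl, chr7:113207529-113207558, plus strand: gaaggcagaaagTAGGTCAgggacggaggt
Per1 held an E-box at bases 166 to 161 before 1 of its starts, and Cry1 held 1 at bases 60 to 55 before its start. Per3 held 2 D-boxes, at bases 205 to 198 and 158 to 151 before its start. The Arntl match lay at bases 31 to 37 after 1 of its starts. Among 32851 promoters of this length, 7.15% held the E-box, 2.32% the D-box, 2.61% the ROR element and 1.79% the cAMP response element. For Clock, Dbp, Nr1d1 and Nr1d2 none of the 4 letter strings was in the windows, and the cAMP response element was in none of the members. A match describes the letters and is not evidence of binding in these tumours.

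Values below are probe set intensities on a linear scale. Where a gene had several probe sets, the brightest on average stands for it. Changes between groups are given ± SE after the transformation log2(intensity + 16). A gene was called when its limma p, adjusted by Benjamini-Hochberg over the 15005 genes, was under 0.05. Array medians lay between 72.3 and 78.5, and tumours of 1 group correlated at 0.987 to 0.997. The melanocyte lineage factor Sox10 was abundant in all groups (probe set 1451689_a_at, lowest tumour 7901), whereas the pigment enzymes Tyr and Tyrp1 did not pass the filter, with highest tumours at 21.0 and 21.8. The 3 probe sets of Nras had lower medians in the treated groups (for 1454060_a_at, 2184 to 2524 in vehicle, 1853 to 2009 in -NRAS and 1858 to 2229 in MEKi), and the labels do not say whether they read the inducible transgene.

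The comparison of -NRAS with vehicle tumours asks what happens to the clock genes once the oncogene is no longer induced. The Per genes, Dbp and Nr1d2 rose, and Arntl, Bhlhe40 and Nr1d1 fell. Of the 10 members 5 were higher, 3 were lower and 2, Cry1 and Clock, were not called. Over all genes 59.3% were called in this contrast, 31.8% higher and 27.5% lower, so a called gene was in itself common. The members' median absolute change was 1.21 on the log2 scale, against 0.243 over all genes. For all 8 called members the groups did not overlap, which held for 39.2% of all genes. Since the members were chosen with earlier results of these data known, comparisons of them with all genes are descriptive only. Read by probe set, 15 of the 22 tested were higher, 4 lower and 3 not called, against 28% and 26.7% of all probe sets above the filter (54.7% in either direction). Of the 15 higher, 5 were of Per3, 3 of Per2 and 3 of Clock, which was not called as a gene. Probe sets of 1 gene are thus counted separately, here and in the contrasts below. In bulk tumours, fewer cells of a type and less RNA per cell cannot be told apart.

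**Figure D1:**
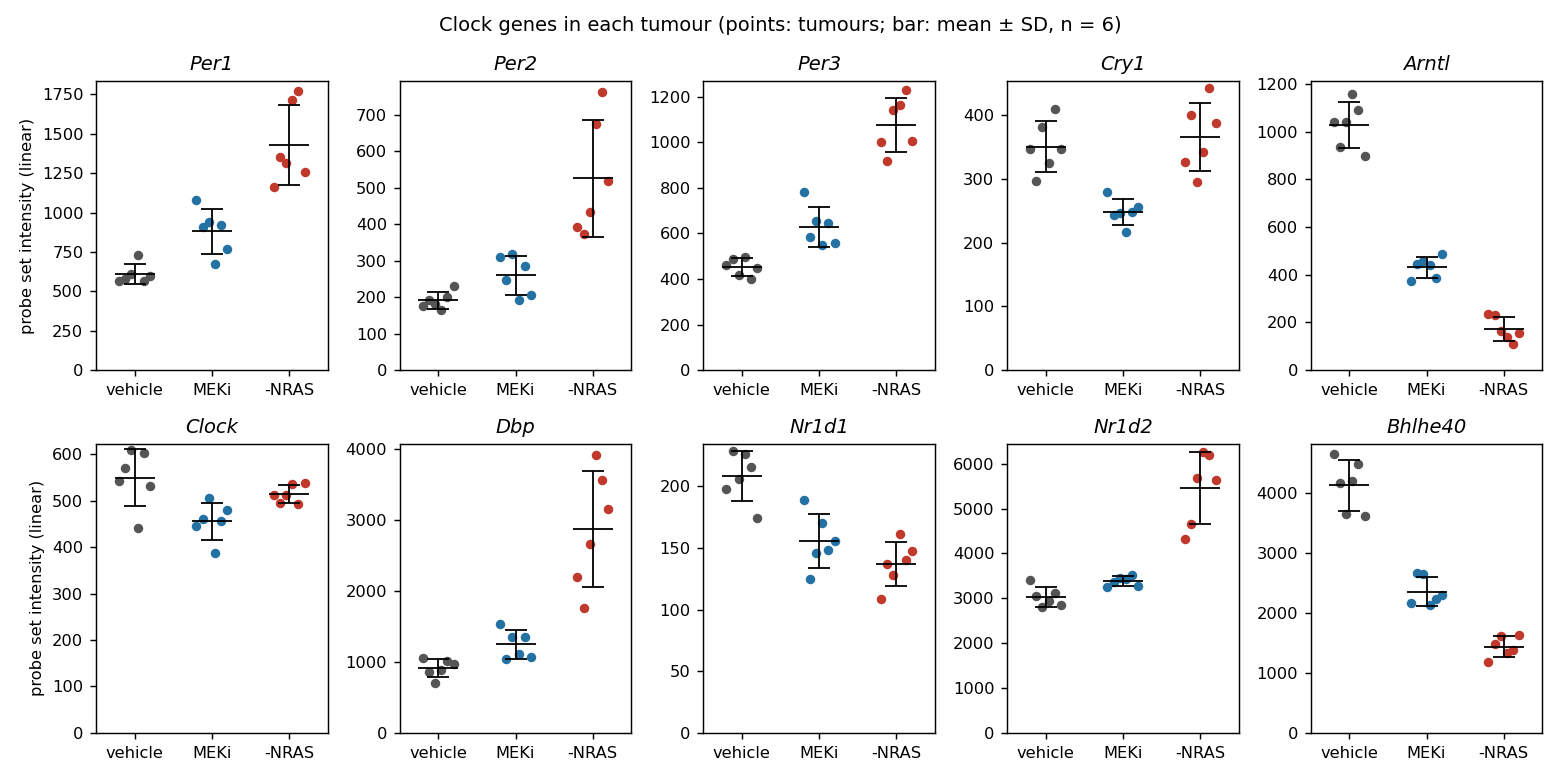
Probe set intensity (linear scale, axis from 0) of the 10 clock genes in each of 18 tumours, with bars for the group mean ± SD (n = 6). Arntl and Bhlhe40 step down and Per1, Per2, Per3 and Dbp step up from vehicle through MEKi to -NRAS, while Cry1 is lowest in MEKi and Clock differs little.

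Arntl encodes the activator BMAL1, without which the loop does not run. Its intensity was 899 in the lowest vehicle tumour, 1040 at the median and 1159 in the highest, and 111, 161 and 237 in the -NRAS tumours. It stood at 374, 444 and 487 in the MEKi tumours. The 3 groups were fully separated, with MEKi between the other two. Arntl was 5.66-fold lower in -NRAS than in vehicle, a change of −2.50 ± 0.13 (limma adjusted p = 1.81e-11), and 2.33-fold lower in MEKi, a change of −1.22 ± 0.13 (limma adjusted p = 6.58e-07). A second Arntl probe set, 1457740_at, also fell in both comparisons, by 1.54 and 1.01.

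Clock encodes the partner of BMAL1. Its main probe set, 1418659_at, ran from 441 through 556 to 610 in vehicle, from 493 through 512 to 539 in -NRAS and from 388 through 458 to 505 in MEKi. The groups overlapped throughout. The -NRAS change of −0.09 ± 0.07 was not called (limma adjusted p = 0.317, 95% interval −0.24 to 0.06). Its probe sets disagreed: the other 3, 1418660_at, 1435775_at and 1439314_at, rose in -NRAS by 0.15 ± 0.06, 0.14 ± 0.05 and 0.31 ± 0.07 (limma adjusted p over all probe sets = 0.0425, 0.0411 and 0.00129). No direction can therefore be given for Clock in -NRAS, and it passed as lower on the main probe set once vehicle replicate 4 was left out (−0.15).

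The Per genes encode the rhythmic repressors of the loop. Per1 ran from 564 through 588 to 733 in vehicle, from 1159 through 1334 to 1773 in -NRAS and from 671 through 913 to 1080 in MEKi. Per2 ran from 166 through 187 to 230 in vehicle, from 373 through 477 to 763 in -NRAS and from 192 through 267 to 318 in MEKi. Per3 ran from 399 through 455 to 497 in vehicle, from 916 through 1073 to 1227 in -NRAS and from 548 through 615 to 780 in MEKi. All -NRAS tumours stood above all vehicle and all MEKi tumours for each of these genes, whereas MEKi and vehicle overlapped for Per1 and Per2. In -NRAS the rises over vehicle were 1.20 ± 0.12 for Per1, 1.34 ± 0.16 for Per2 and 1.22 ± 0.09 for Per3 (limma adjusted p = 4.27e-08, 7.79e-07 and 8.98e-10). All 3 Per2 probe sets rose, by 0.37 to 1.34, and 5 of 6 Per3 probe sets did, by 0.28 to 1.24. The remaining Per3 probe set, 1421086_at, changed by 0.07 and was not called. Per2 also spread widely within -NRAS, with the highest tumour at 763 and the lowest at 373.

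Cry1 encodes the partner repressor of the PER proteins and behaved differently. It ran from 296 through 346 to 409 in vehicle, from 295 through 364 to 442 in -NRAS and from 217 through 247 to 279 in MEKi. The vehicle and -NRAS tumours covered nearly the same range, and all MEKi tumours were lower. The -NRAS change was 0.05 ± 0.09 (limma adjusted p = 0.64, 95% interval −0.14 to 0.24).

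The REV-ERB genes moved in opposite directions in -NRAS. Nr1d1 ran from 174 through 211 to 229 in vehicle, from 109 through 139 to 161 in -NRAS and from 125 through 152 to 189 in MEKi. It fell by 0.55 ± 0.09 in -NRAS (limma adjusted p = 3.75e-05), with no overlap with vehicle. Nr1d2 ran from 2818 through 2988 to 3411 in vehicle, from 4321 through 5659 to 6274 in -NRAS and from 3255 through 3394 to 3527 in MEKi. It rose by 0.84 ± 0.08 in -NRAS (limma adjusted p = 4.4e-08), where every tumour was above every tumour of the other groups. A second Nr1d2 probe set, 1416959_at, lay at 13.7 to 22.1 in all tumours and was not tested.

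Dbp encodes a D-box activator and is a direct output of BMAL1 and CLOCK. Its main probe set, 1438211_s_at, whose suffix marks probes that may match more than 1 transcript, ran from 710 through 933 to 1060 in vehicle, from 1758 through 2905 to 3916 in -NRAS and from 1046 through 1230 to 1542 in MEKi. The -NRAS tumours were all above the others and spread over the widest range. Dbp rose 3.01-fold in -NRAS, by 1.59 ± 0.16 (limma adjusted p = 9.8e-08), and a second probe set, 1418174_at, rose by 1.57. Bhlhe40 (DEC1) encodes a repressor that competes at E-boxes. It ran from 3622 through 4178 to 4647 in vehicle, from 1184 through 1435 to 1636 in -NRAS and from 2134 through 2268 to 2660 in MEKi. The groups were fully separated in the same order as for Arntl. It fell by 1.51 ± 0.09 in -NRAS, a 2.85-fold difference (limma adjusted p = 4.53e-11).

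The comparison of MEKi with vehicle tumours asks how the same genes respond when the kinase below RAS is blocked. Arntl, Bhlhe40, Cry1, Nr1d1 and Clock fell, and Per1, Per3 and Dbp rose. Thus 3 members were higher, 5 were lower and Per2 and Nr1d2 were not called. Over all genes 45.2% were called, 24.3% higher and 20.9% lower. The median absolute change of the members was 0.444, against 0.169 over all genes. The groups did not overlap for 4 members, Per3, Cry1, Arntl and Bhlhe40, and 25.5% of all genes had this property. By probe set, 5 of 22 were higher, 6 lower and 11 not called, against 20.6% and 20.1% of all probe sets (40.7% in either direction), so the share of called probe sets was near that of the array.

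Bhlhe40 fell by 0.80 ± 0.09 in MEKi and Cry1 by 0.47 ± 0.09 (limma adjusted p = 5.31e-07 and 0.000302). Nr1d1 fell by 0.39 ± 0.09 (limma adjusted p = 0.00174), with overlapping groups. Clock fell by 0.26 ± 0.07 on its main probe set (limma adjusted p = 0.00593), but the other 3 probe sets were not called, with changes from −0.03 to 0.12. Among the genes that rose, Per1 changed by 0.51 ± 0.12 and Per3 by 0.46 ± 0.09 (limma adjusted p = 0.00122 and 0.000304). For Per3, 3 of 6 probe sets were called higher.

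For Dbp and Per2 the MEKi call turned on single tumours, and for Dbp also on the probe set. Dbp rose by 0.43 ± 0.16 (limma adjusted p = 0.0366), but its second probe set changed by 0.11 ± 0.15 and was not called (limma adjusted p over all probe sets = 0.62). The Dbp call was lost without vehicle replicate 2, 3 or 4 or MEKi replicate 1, 3 or 5, with changes from 0.36 to 0.43. Per2 changed by 0.39 ± 0.16 and missed the threshold (limma adjusted p = 0.0535, 95% interval 0.06 to 0.73). It passed without vehicle replicate 6, -NRAS replicate 1, 2, 4 or 5, or MEKi replicate 4 or 6, with changes from 0.39 to 0.47, and none of its 3 probe sets was called with all tumours. Nr1d2 changed by 0.16 ± 0.08 (limma adjusted p = 0.111, 95% interval −0.01 to 0.33).

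**Figure D2:**
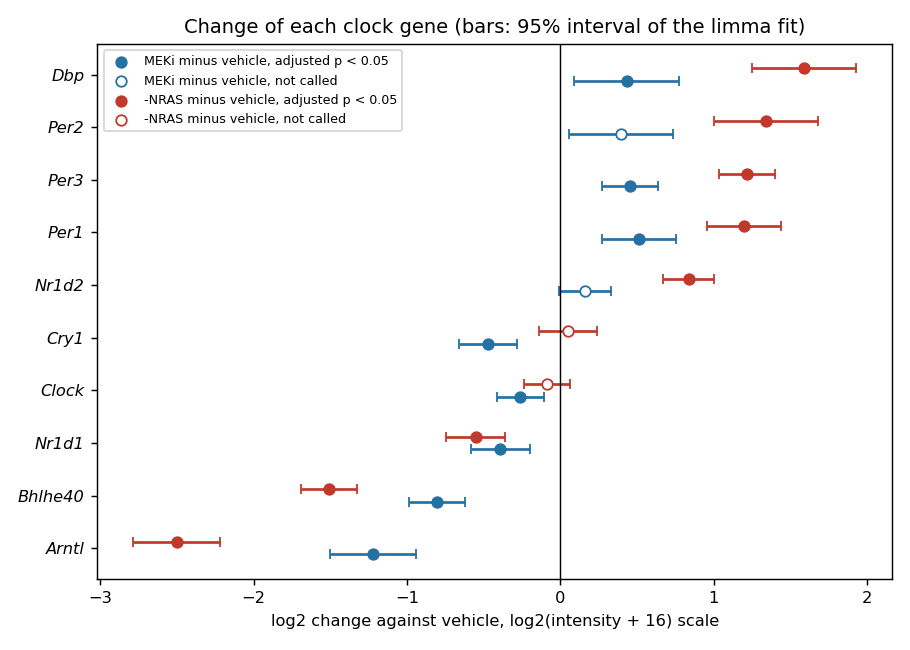
Log2 change of each clock gene against vehicle, on the log2(intensity + 16) scale, for MEKi (blue) and -NRAS (red), with 95% intervals of the limma fit; filled points have an adjusted p under 0.05. Arntl lies at −2.50 in -NRAS and −1.22 in MEKi, Dbp at 1.59 and 0.43, and Cry1 at 0.05 and −0.47.

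The direct comparison of -NRAS with MEKi tumours tests where the treated groups differ. Per1, Per2, Per3, Dbp, Nr1d2 and Cry1 were higher in -NRAS, and Arntl and Bhlhe40 were lower. That is 6 members higher, 2 lower and 2 not called, against 47% called over all genes (24.3% higher and 22.7% lower). All 8 called members had groups that did not overlap, as did 28.3% of all genes. By probe set, 15 of 22 were higher, 3 lower and 4 not called, against 20.6% and 20% of all probe sets (40.5% in either direction). Dbp was 2.23-fold higher in -NRAS, by 1.16 ± 0.16, and Arntl was 2.43-fold lower, by a change of −1.28 ± 0.13 (limma adjusted p = 8.88e-06 and 2.46e-07). Per2 was higher by 0.95 ± 0.16, Per3 by 0.76 ± 0.09, Per1 by 0.69 ± 0.12 and Nr1d2 by 0.67 ± 0.08 (limma adjusted p = 7.53e-05, 7.41e-07, 6.37e-05 and 1.21e-06). Bhlhe40 was lower, with a change of −0.71 ± 0.09 (limma adjusted p = 1.78e-06). Cry1 was higher by 0.52 ± 0.09 (limma adjusted p = 8.84e-05), with vehicle tumours in the range of the -NRAS tumours.

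Nr1d1 and Clock missed the threshold between the treated groups. The Nr1d1 change was −0.16 ± 0.09 (limma adjusted p = 0.163, 95% interval −0.35 to 0.03). The Clock change was 0.17 ± 0.07 (limma adjusted p = 0.0535), close to the threshold. It passed with the mean of all its probe sets (0.17, limma adjusted p = 0.00211) or its most variable one (0.19, limma adjusted p = 0.042), and 2 of its 4 probe sets were called higher in -NRAS. It also passed with only these 2 groups in the fit (limma adjusted p = 0.0264), and without vehicle replicate 3 or 4 or MEKi replicate 3, with changes up to 0.20. Over the 3 groups, 8 of the 10 genes had their MEKi mean between those of vehicle and -NRAS, as had 46.2% of all genes. Both treated groups were compared with the same vehicle tumours. Beside that caveat, 6 members were called in 1 direction against vehicle in both treated groups, as were 30.3% of all genes, and for 5 of these -NRAS was also called further from vehicle than MEKi, against 11% of all genes. In all, 7 of the 10 differed in 1 direction from both vehicle and MEKi in -NRAS, as did 34.1% of all genes.

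Markers of other cells moved with these groups. The summed intensity of 12 macrophage markers was 24970 to 41000 in vehicle, 67490 to 84680 in -NRAS and 11670 to 27750 in MEKi. That of 10 fibroblast markers was 100600 to 115800, 200900 to 234300 and 141400 to 148200, and that of 10 skeletal muscle markers was 3641 to 17550, 32060 to 53700 and 19820 to 46380. For 8 endothelial markers the sums were 860 to 1590, 2068 to 2940 and 940.4 to 1494, and for 5 adipocyte markers 1575 to 4110, 11880 to 20150 and 2436 to 4937. The sums of 7 keratinocyte markers were 518.6 to 663 in vehicle and 585.5 to 1103 in MEKi, and in -NRAS 664.3 to 27660 with a median of 689.5 and replicate 2 highest. The 7 melanocytic markers that passed the filter summed to 9155 to 11260, 9881 to 13240 and 12520 to 17820, most of it Sox10 (mean 9200 in vehicle). Of these 7, 5 were higher and none lower in -NRAS (median change 0.89), and 2 were higher and none lower in MEKi (median change 0.13).

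The marker lists were also counted by called genes. Macrophage markers were higher in -NRAS for 12 of 12 and lower in MEKi for 10 of 12. The 9 tested cell cycle genes were lower in -NRAS for 9 of 9 and higher in MEKi for 9 of 9, with sums of 7610 to 10830 in vehicle, 2042 to 3249 in -NRAS and 11400 to 17900 in MEKi. Fibroblast markers were higher for 7 and lower for 2 of 10 in -NRAS, and higher for 6 and lower for 1 in MEKi, and muscle markers were higher for 10 of 10 in both. With macrophage and fibroblast scores as covariates limma called 0 members in any contrast, and 0, 1 and 1 had an unadjusted p under 0.05 in -NRAS against vehicle, MEKi against vehicle and -NRAS against MEKi. The groups held 88.8% and 97.4% of the variance of those scores, and the median SE over all genes rose from 0.0744 to 0.450, 0.242 and 0.301. With the cell cycle score, chosen after seeing the data, 0, 6 and 0 members were called and 5, 8 and 1 had an unadjusted p under 0.05, and the groups held 96.6% of its variance. Over all genes the cell cycle score left 125 higher and 159 lower, 2290 and 2336, and 2 and 1. With the muscle score 9, 4 and 8 were called. Over all 15005 genes that score left 3277 higher and 2655 lower in -NRAS against vehicle. It left 2827 and 2341 in MEKi against vehicle, and 3434 and 2960 in -NRAS against MEKi. The part of cell content and of cell division in the clock gene differences was not tested.

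Tumours of the same group also differed from each other, and some pairs of the clock genes varied together there. For each pair of members the correlation was taken across the 18 tumours after subtracting group means. The p came from 100000 permutations within groups, with adjustment over the 45 pairs. Each gene was read by its brightest probe set alone. Of the pairs 8 passed by Pearson's r, 5 positive and 3 negative, and 6 passed by Spearman's rho. All 8 were among Per1, Per2, Per3, Dbp, Nr1d2 and Arntl, with Arntl negative in each of its pairs. Cry1, Clock, Nr1d1 and Bhlhe40 were in none of them. Before adjustment 11 pairs had p under 0.05. Pairs of other genes were not correlated, so these counts have no share over all genes beside them. Whether clock genes vary together more than other genes was not tested.

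**Figure D3:**
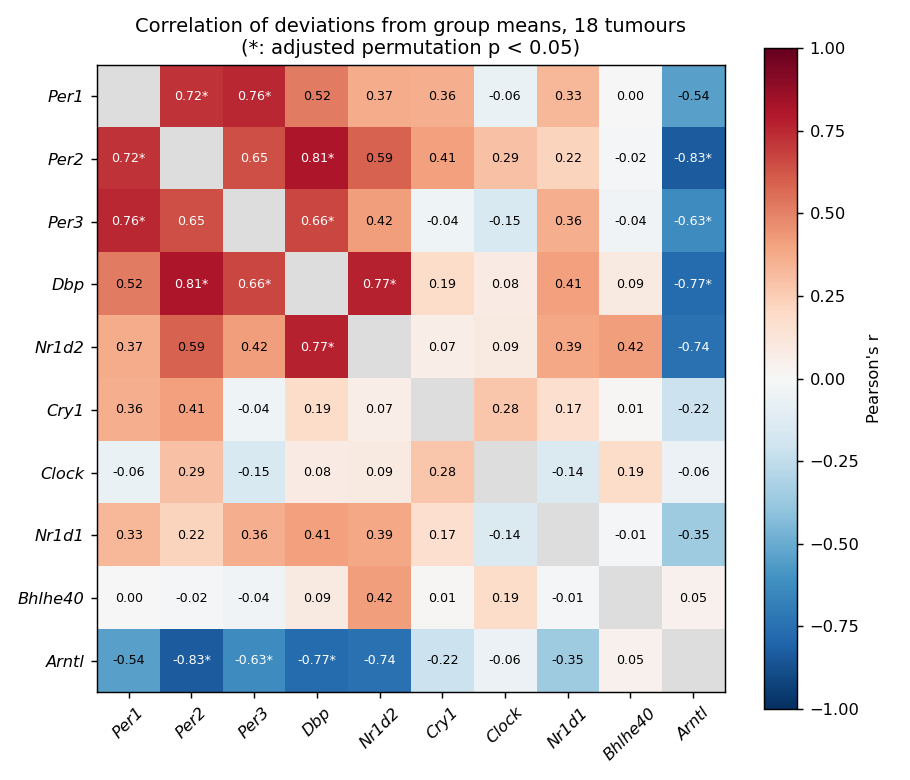
Pearson's r of log2 deviations from the group mean for each pair of clock genes over 18 tumours, on a colour scale from −1 (blue) to 1 (red); asterisks mark an adjusted permutation p under 0.05. Among Per1, Per2, Per3, Dbp and Nr1d2 r is 0.37 to 0.81, and with Arntl it is −0.54 to −0.83.

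Per2 and Arntl had r = −0.83 (permutation p = 0.00064, adjusted 0.0207) and rho = −0.72 (permutation p = 0.00492, adjusted 0.0443). Without the 2 tumours farthest from the median deviation of the first-named gene, here Per2, r was −0.71. The same rule was used for every pair below. Within vehicle, -NRAS and MEKi the r of Per2 and Arntl was −0.77, −0.94 and −0.56. Per2 and Dbp had r = 0.81 (permutation p = 0.00109, adjusted 0.0207) and rho = 0.77 (permutation p = 0.00204, adjusted 0.0443). Without 2 tumours r was 0.77, and within the groups it was 0.26, 0.92 and 0.83. The sign was thus the same in each group, and the vehicle value for Dbp was the weakest.

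Arntl and Dbp had r = −0.77 (permutation p = 0.00481, adjusted 0.0321) and rho = −0.70 (permutation p = 0.00664, adjusted 0.0498), and −0.75 without 2 tumours. Within vehicle r was −0.01, against −0.91 in -NRAS and −0.76 in MEKi. Dbp and Nr1d2 had r = 0.77 (permutation p = 0.00367, adjusted 0.0321) and rho = 0.73 (permutation p = 0.00314, adjusted 0.0443), 0.65 without 2 tumours, and 0.69, 0.90 and 0.05 within vehicle, -NRAS and MEKi. Arntl and Dbp thus had an r near 0 among vehicle tumours, and Dbp and Nr1d2 among MEKi tumours.

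Per1 and Per2 had r = 0.72 (permutation p = 0.00499, adjusted 0.0321) and rho = 0.74 (permutation p = 0.00478, adjusted 0.0443), with 0.60 without 2 tumours. Within vehicle r was −0.51, against 0.87 in -NRAS and 0.92 in MEKi, so the sign differed in vehicle. Per1 and Per3 had r = 0.76 (permutation p = 0.00138, adjusted 0.0207) and rho = 0.72 (permutation p = 0.00257, adjusted 0.0443), 0.63 without 2 tumours, and 0.50, 0.73 and 0.90 within the groups. Per3 with Arntl (r = −0.63, rho = −0.61) and with Dbp (r = 0.66, rho = 0.65) passed by Pearson's r (permutation p = 0.00602 and 0.00418, adjusted 0.0339 and 0.0321). They did not pass by rho (permutation p = 0.0152 and 0.00876, adjusted 0.076 and 0.0563). Without the 2 tumours farthest from the median deviation of Per3, r was −0.51 and 0.49 and missed the threshold (permutation p = 0.0619 and 0.0878). Within vehicle, -NRAS and MEKi r was −0.05, −0.87 and −0.75 for Per3 with Arntl, and 0.04, 0.82 and 0.93 for Per3 with Dbp.

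**Figure D4:**
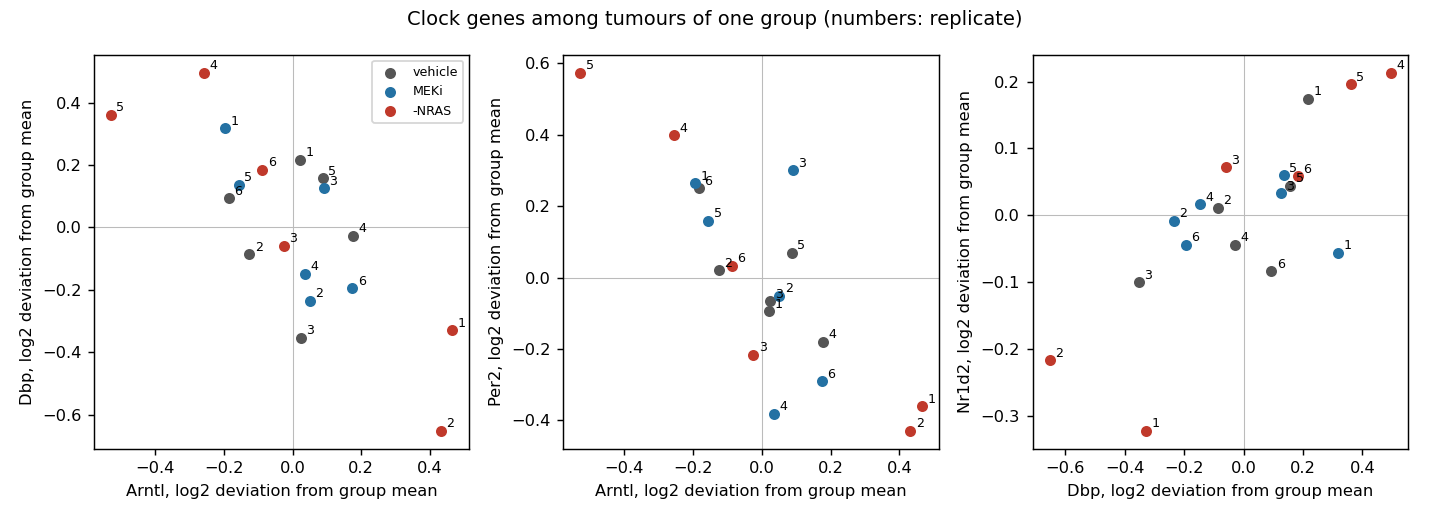
Log2 deviation from the group mean for Arntl against Dbp, Arntl against Per2 and Dbp against Nr1d2, 1 point per tumour with its replicate number, coloured by group. The -NRAS tumours stretch furthest, from replicates 1 and 2 (high Arntl on its main probe set, low Per2 and Dbp) to replicates 4 and 5.

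On the main probe sets of Arntl, Per2 and Dbp the spread was widest in the -NRAS group (SD of log2 values 0.39, 0.41 and 0.44). This did not hold for Per3, Clock or Nr1d1. Replicates 1 and 2 had Arntl at 237 and 232, Per2 at 391 and 373, and Dbp at 2202 and 1758. Replicates 4 and 5 had Arntl at 138 and 111, Per2 at 674 and 763, and Dbp at 3916 and 3563. The tumours with the least Arntl on its main probe set therefore had the most Per2 and Dbp. The second Arntl probe set, 1457740_at, did not follow that order. It read 65.3 and 45.6 in replicates 1 and 2, and 53.9 and 73.3 in replicates 4 and 5. Its spread was widest in vehicle (SD of log2 values 0.32, against 0.19 in -NRAS), and its correlations were not taken. Replicate 2 also had the highest keratinocyte marker sum (27660), and replicate 5 the lowest muscle marker sum of its group (32060). Their part in these relations was not tested.

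The rest of the clock machinery was read through 3 further lists. Among 12 other genes of the loop that were tested, 6 were higher, 4 lower and 2 not called in -NRAS against vehicle, with a median change of 0.12. In MEKi 5 were higher, 1 lower and 6 not called, with a median of 0.23. Against MEKi, -NRAS had 3 higher, 4 lower and 5 not called, with a median of −0.11. The same figures over all genes were medians of 0.0036, 0.0089 and −0.009, with 59.3%, 45.2% and 47% called.

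Both relatives of Dbp on the list rose in -NRAS. Tef, like Dbp a PAR bZIP activator at D-boxes, ran from 825 through 881 to 1034 in vehicle, from 1590 through 1815 to 1981 in -NRAS and from 1063 through 1121 to 1339 in MEKi. Its rise was 0.99 ± 0.07 in -NRAS and 0.35 ± 0.07 in MEKi (limma adjusted p = 1.02e-09 and 0.000495), and the MEKi call was lost with the mean of all its probe sets (0.09). Hlf, another member of the family, ran from 63.3 through 79.7 to 113 in vehicle, from 172 through 300 to 577 in -NRAS and from 68.1 through 108 to 129 in MEKi. It rose by 1.70 ± 0.23 in -NRAS (limma adjusted p = 2.86e-06), with no overlap with either other group. Nfil3, the repressor at the same D-boxes, rose by 0.30 ± 0.10 in MEKi and fell by 0.31 ± 0.10 in -NRAS (limma adjusted p = 0.0176 and 0.00959), with groups that overlapped. It was lower in -NRAS than in MEKi, with a change of −0.61 ± 0.10 (limma adjusted p = 3.75e-05).

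Npas2, a relative of Clock that can pair with BMAL1, fell with Arntl in -NRAS. It ran from 53.3 through 96.5 to 129 in vehicle, from 25.1 through 32.9 to 45.4 in -NRAS and from 59.4 through 71.2 to 75.6 in MEKi, a fall of 1.10 ± 0.14 in -NRAS (limma adjusted p = 1.69e-06). Rorb, a receptor of the ROR family that acts at ROR elements, ran from 469 through 557 to 1157 in vehicle, from 80.0 through 94.6 to 132 in -NRAS and from 86.6 through 176 to 372 in MEKi. It fell by 2.49 ± 0.25 and 1.65 ± 0.25 (limma adjusted p = 7.96e-08 and 2.74e-05). Timeless, a homologue of the fly clock gene that acts in DNA replication, fell by 0.63 ± 0.11 in -NRAS (limma adjusted p = 4.09e-05), where the 9 cell cycle genes were also lower. The repressor genes Cry2 and Cipc rose in MEKi by 0.52 ± 0.07 and 0.51 ± 0.09 (limma adjusted p = 6.02e-06 and 8.01e-05). They also rose in -NRAS, by 0.39 ± 0.07 and 0.41 ± 0.09 (limma adjusted p = 6.89e-05 and 0.000388), and were not called between the treated groups. Between the treated groups Hlf was higher in -NRAS by 1.43 and Tef by 0.63, and Timeless, Rorb and Npas2 were lower, with changes of −0.84, −0.84 and −0.76.

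**Figure D5:**
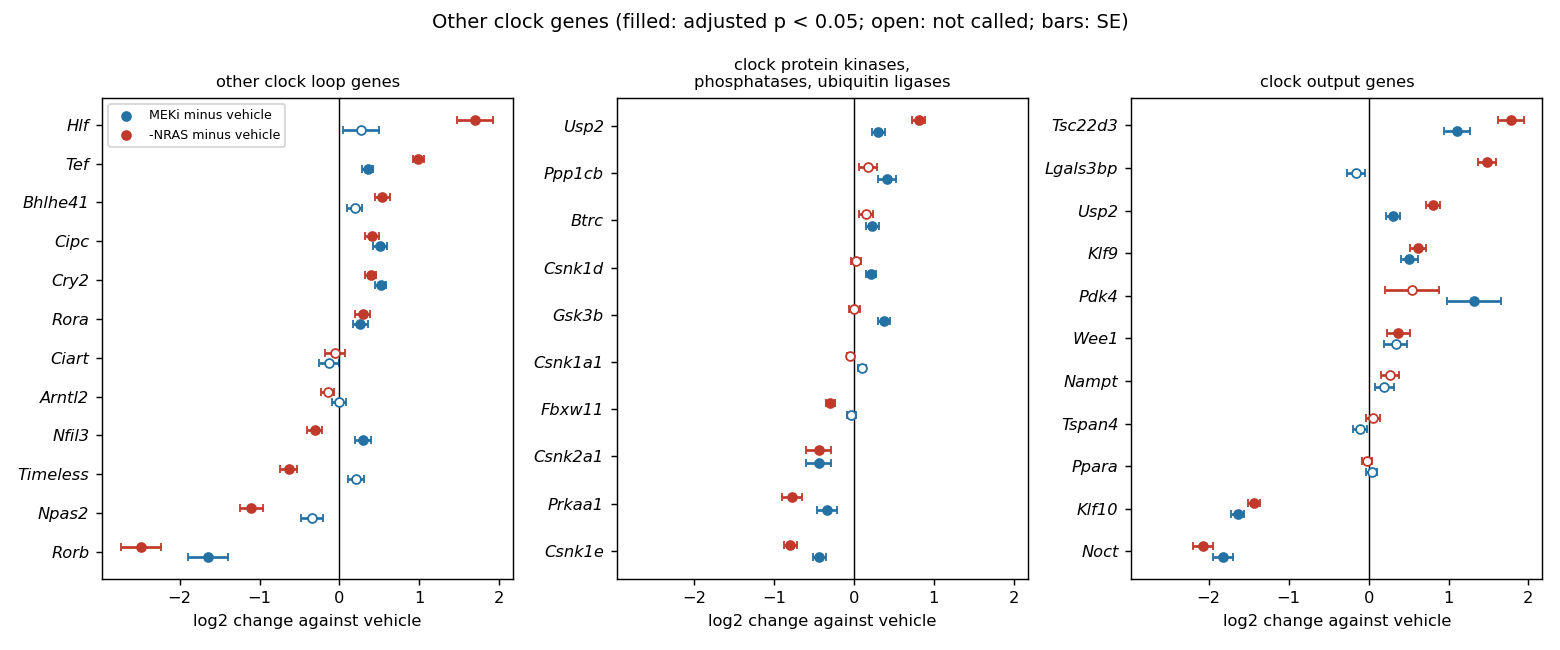
Log2 change against vehicle ± SE of the other clock loop genes, the enzymes acting on clock proteins and the clock output genes, for MEKi (blue) and -NRAS (red), filled where the adjusted p was under 0.05. Hlf (1.70) and Tef (0.99) are the highest of the loop genes in -NRAS and Rorb (−2.49) the lowest, and Noct and Klf10 are low in both treated groups.

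Enzymes that modify or degrade clock proteins were read next. In -NRAS against vehicle 1 of 10 tested was higher, 4 were lower and 5 were not called (median −0.02). In MEKi 5 were higher, 3 lower and 2 not called (median 0.16). In -NRAS against MEKi 1 was higher, 6 were lower and 3 not called (median −0.22). The share called was thus 50%, 80% and 70% in the 3 contrasts, against 59.3%, 45.2% and 47% of all genes. Csnk1e, the casein kinase that phosphorylates PER proteins, fell by 0.80 ± 0.08 in -NRAS and by 0.43 ± 0.08 in MEKi (limma adjusted p = 9.21e-08 and 0.000242). Its intensity was 2661 to 3340 in vehicle, 1544 to 1796 in -NRAS and 1721 to 2568 in MEKi, without overlap with vehicle. Usp2, a deubiquitinase with a rhythmic transcript, rose by 0.81 ± 0.09 in -NRAS (limma adjusted p = 1.48e-07). Prkaa1, a catalytic subunit of AMP-activated kinase, which marks CRY1 for degradation, fell by 0.78 ± 0.13 in -NRAS and by 0.34 ± 0.13 in MEKi (limma adjusted p = 2.69e-05 and 0.0332). The MEKi call for Prkaa1 was lost without vehicle replicate 3, 4 or 5 or MEKi replicate 1, 2 or 4, with changes from −0.33 to −0.28.

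The remaining called enzymes were close to the threshold or small. Gsk3b and Ppp1cb rose in MEKi by 0.38 and 0.41 (limma adjusted p = 0.000287 and 0.00568), and Fbxw11 fell by 0.30 ± 0.06 in -NRAS (limma adjusted p = 0.000209). Read by its most variable probe set, Gsk3b lost its call (0.08). Csnk2a1 fell by 0.44 in each treated group (limma adjusted p = 0.0222 in -NRAS and 0.0289 in MEKi). Without vehicle replicate 3 neither call held, with changes of −0.32 in both, and the MEKi call was also lost without MEKi replicate 6 (−0.30). Between the treated groups Usp2 was higher in -NRAS by 0.50, and Prkaa1, Gsk3b, Csnk1e and Fbxw11 were lower, with changes of −0.44, −0.37, −0.37 and −0.26. The Fbxw11 call was lost with the mean of all its probe sets (−0.08).

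Output genes, which the clock drives in many tissues without belonging to the loop, moved both ways, and Por was not analysed here. In -NRAS against vehicle 5 of 11 tested were higher, 2 lower and 4 not called (median 0.37). In MEKi 4 were higher, 2 lower and 5 not called (median 0.20). In -NRAS against MEKi 4 were higher, none lower and 7 not called (median 0.11). The share called was 63.6%, 54.5% and 36.4% in the 3 contrasts, against 59.3%, 45.2% and 47% of all genes. Noct, a rhythmic phosphatase of nicotinamide dinucleotides, fell from 1209 to 1897 in vehicle to 282 to 438 in -NRAS and 360 to 518 in MEKi. It fell by 2.07 ± 0.12 in -NRAS and fell by 1.82 ± 0.12 in MEKi (limma adjusted p = 5.8e-11 and 1.25e-09). Klf10, a zinc finger factor, fell by 1.43 ± 0.08 and 1.64 ± 0.08 (limma adjusted p = 2.48e-11 and 2.29e-11). These genes respond to other signals besides the clock.

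Tsc22d3 (GILZ), a glucocorticoid target, rose from 1110 to 1745 in vehicle to 3294 to 6643 in -NRAS and 2635 to 3235 in MEKi, by 1.78 ± 0.16 and 1.11 ± 0.16 (limma adjusted p = 1.72e-08 and 1.53e-05). Klf9, also a glucocorticoid target, rose by 0.62 ± 0.10 in -NRAS and by 0.51 ± 0.10 in MEKi (limma adjusted p = 4.53e-05 and 0.000525). Lgals3bp rose by 1.48 ± 0.11 in -NRAS (limma adjusted p = 1.53e-09). Its MEKi change of −0.15 ± 0.11 was not called (limma adjusted p = 0.281), and it was higher in -NRAS than in MEKi by 1.63 (limma adjusted p = 1.11e-09). Pdk4, a kinase that restrains pyruvate oxidation, rose by 1.32 ± 0.34 in MEKi (limma adjusted p = 0.0036), where it ran from 393 through 674 to 1925. With the muscle marker score as a covariate this Pdk4 change was −0.04. Between the treated groups Tsc22d3, Usp2 and Klf10 were higher in -NRAS by 0.67, 0.50 and 0.20. Usp2 stood on both the enzyme list and the output list and was counted in each. The Klf10 difference between the treated groups lost its call without any 1 of -NRAS replicates 1, 3, 5 and 6 or MEKi replicates 1, 2, 4 and 5, with changes from 0.16 to 0.21.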

How the data were processed

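Total RNA (10 ug per tumour) was read on 18 one-colour Affymetrix arrays, 6 per group. The deposited table holds probe set intensity values that the authors had already summarised and scaled. The submitters' processing notes name both MAS5 and RMA, and which one gave these values is not given in the sources used here. All values were positive and array medians were 72.3 to 78.5, so they were read as linear intensities. Under another transformation, changes would be on another scale. Platform annotation gave 1 symbol for 34945 probe sets, several for 932 and none for 9160. The 10 members, the lists and the tests were chosen with earlier results of these data known.

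Values were taken as log2(intensity + 16). The brightest probe set on average stood for its gene, and 15005 genes whose mean exceeded the array's 25th percentile (intensity 23.5) were kept. One limma model held all 3 groups, with limma 3.58.1 (R 4.3.3), with 15 residual degrees of freedom and a prior of 3.46, and p-values were adjusted by Benjamini-Hochberg within a contrast. A second fit used all probe sets above the filter. The code of the fit was run on simulated data with independent noise for each gene and few changed genes. That run checks the code and not how well the model suits these tumours. Of each further clock list, up to 5 called genes per contrast with the largest change could be named. Each tumour is a distinct biological replicate, and the number of arrays limits the precision. Same-numbered tumours of different groups were not treated as pairs. Correlations and figures were made in Python 3.11.15 with matplotlib 3.10.9. Alternatives were other filters, probe set choices, scalings, pseudocounts and priors, array weights, 2 groups only, a replicate block, marker scores as covariates, stricter thresholds and leaving out each tumour.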

Additional observations from a re-analysis of the deposited data

Results flagged for a closer look

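Among 30 sets of 6 tumours (10 clock genes in 3 groups) 1 held a tumour far from the others. In the vehicle group Per1 was 733 in replicate 4, against 611 in the nearest tumour and 564 in the lowest, so that this gap was 0.693 of the whole range, above Dixon's 95% critical value for 6 samples. Chance alone flags about 1 in 20 such groups. The Per1 rise in -NRAS and in MEKi stayed past the limma threshold without this tumour.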

How the results depend on the processing

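In -NRAS against vehicle and -NRAS against MEKi, the counts of called members stayed within 1.5 times their values except with 2 sets of covariates, and each of these counts was 0 with the macrophage and fibroblast scores and 0 with the cell cycle score (added after the data were seen). In MEKi against vehicle, the 3 higher members became 5 with only the 2 groups compared, 0 at a change of at least 1.5-fold and 0 with the macrophage and fibroblast scores. The 5 lower members became 2 with the muscle score, 2 at 1.5-fold, 2 with the cell cycle score and 0 with the macrophage and fibroblast scores. Over all genes those 2 scores left 16 higher and 46 lower, 201 and 298, and 1 and 5 in the 3 contrasts. The cell cycle score left 125 and 159, 2290 and 2336, and 2 and 1. In MEKi against vehicle the muscle score left 2827 higher and 2341 lower over all genes, and the 1.5-fold limit 882 and 845. Of the changes of single genes and pairs, 2386 kept direction and side of the threshold, 162 lost the call, 25 gained it and 43 turned sign. With the cell cycle score the changes that turned sign were, in -NRAS against vehicle, Clock 0.083, Cry1 −0.78, Hlf −0.49 and Timeless 0.68. In -NRAS against MEKi they were Arntl 0.0068, Cry1 −0.59, Dbp −0.51, Hlf −1.51, Per1 −0.17, Per2 −0.45, Rorb 0.66, Timeless 0.93 and Tsc22d3 −0.82. With the macrophage and fibroblast scores they were, in -NRAS against vehicle, Clock 0.37, Csnk2a1 0.43, Fbxw11 0.14, Hlf −0.13, Per2 −0.10, Prkaa1 0.47, Tsc22d3 −0.95 and Usp2 −0.38. In MEKi against vehicle they were Cipc −0.023, Dbp −0.11, Klf9 −0.39, Nr1d2 −0.021, Pdk4 −0.035, Per1 −0.10, Per2 −0.67, Prkaa1 0.074 and Tsc22d3 −0.22. In -NRAS against MEKi they were Bhlhe40 0.068, Fbxw11 0.18, Gsk3b 0.11, Prkaa1 0.39, Rorb 1.00, Tsc22d3 −0.73 and Usp2 −0.31. With the muscle score Pdk4 was −0.043 and Prkaa1 0.011 in MEKi. Clock turned to 0.13 in -NRAS with the mean of all probe sets, and with the most variable probe set to 0.31 in -NRAS and 0.12 in MEKi. Leaving out 1 tumour, the Cry1 change in -NRAS ran from −0.003 to 0.11. The cause of these changes was not tested. The replicate block gave 5 higher and 3 lower members in -NRAS, 3 and 5 in MEKi, and 7 and 2 between the treated groups, where Clock was added (0.17, limma adjusted p = 0.0449). Same-numbered tumours had deviations correlated at −0.136 to 0.273 (8 of 18 pairs over 0.1). Their median r was 0.0725, against −0.0129 for other pairs of tumours from different groups. The numbers were not read as pairs, and whether equal numbers mark a shared factor was not tested.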
